A study of Saccharomyces cerevisiae with 12 samples.

Results

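Potassium restriction at 2% glucose was followed in 6 of the 12 RNA-seq libraries of the study, those of the budding yeast Saccharomyces cerevisiae grown in SD medium with 2% glucose and either 1 mM or 7 mM KCl. The 3 libraries at 1 mM K (the restricted medium) were set against the 3 libraries at 7 mM K, and membership was read from the sample labels alone, with no measured value. All cells were wild type BY4742, a haploid laboratory strain of mating type alpha. It carries deletions at HIS3, LEU2, LYS2 and URA3, so both groups share those auxotrophies. By their labels the groups differ in potassium chloride alone. The other 6 libraries came from the same strain in 0.5% glucose at 1 mM K (3 libraries) and 7 mM K (3 libraries), and were used only where the response at 2% glucose was compared with the response at 0.5% glucose. The labels call the 3 libraries of a group independent biological replicates and give 1 batch date for all 12. The growth stage at harvest is not given in the sources used here. A difference in stage between the groups therefore cannot be told apart from an effect of potassium. The series is about chronological lifespan, the survival of cells that have stopped dividing.

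Potassium is the main cation inside yeast cells, where it balances the charge of nucleic acids and polyphosphate and is needed for protein synthesis, turgor and the control of intracellular pH. It enters through Trk1 and Trk2, driven by the membrane potential that the proton pump Pma1 makes at the plasma membrane, and sodium and excess potassium leave through the Ena pumps and the antiporter Nha1. When potassium is scarce, ammonium and other cations can enter in its place, and work in yeast has tied low potassium to phosphate uptake and to the handling of ammonium and amino acids.

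Depth was even, with 6581782 to 7036345 counts at yeast genes in the 6 libraries. A further 35.4% to 40.7% of all counts in these libraries stood at rows with WBGene identifiers, which are not yeast gene identifiers and were left out. Levels are given as CPM, yeast counts scaled to a common library size with TMM factors. They compare 1 gene between libraries, not different genes, since they are not divided by gene length. Log2 CPM correlated across genes at 0.9725 to 0.9896 within the 1 mM K libraries, at 0.9904 to 0.992 within the 7 mM K libraries and at 0.8944 to 0.927 between the groups. The third 1 mM K library stood somewhat apart from the other two: among genes that averaged 20 CPM or more in its group (5043 at 1 mM K and 4823 at 7 mM K), 82 lay over 2-fold from the mean of its partners, against 1 to 5 genes for each of the other 5 libraries. In that library the list medians lay above its partners by 0.70 on the log2 scale for the G1/S genes, 0.55 for ribosome biogenesis and 0.53 for the phosphate transporters, and below them by -0.31 for the heat shock chaperones, so counts on these lists are given with and without it. The counts fitted the strain: LEU2, LYS2 and URA3 had 0 counts in all 6 libraries. HIS3, whose deletion in this strain removes only part of the gene, had 226 to 320 counts at 1 mM K and 898 to 1087 counts at 7 mM K. The 6 alpha haploid marks summed to 875 to 992 CPM of unscaled counts at 1 mM K and 373 to 426 at 7 mM K. The 6 marks of the a mating type summed to 87.8 to 107 at 1 mM K and 143 to 149 at 7 mM K, with MFA1 and MFA2 at 0, but very short genes that every yeast cell uses, such as RPL41A and RPL41B, were at 0 too, so those zeros say nothing of mating type. The 8 sporulation marks summed to 889 to 1394 CPM at 1 mM K and 2495 to 2556 at 7 mM K, nearly all of it SPS100, a gene of the spore wall with 5535 to 8982 counts at 1 mM K and 15760 to 17145 counts at 7 mM K. In RNA from whole cultures, a change in the number of cells of 1 state and a change in RNA per cell cannot be told apart.

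Of 6067 genes tested, 1778 were higher at 1 mM K (29.3%) and 1612 were lower (26.6%) by edgeR's quasi-likelihood test at an adjusted p under 0.05, so 55.9% of all genes passed and counts on any gene list are read against those shares. With a change of at least 2-fold as well, 542 genes were higher (8.93%) and 377 were lower (6.21%); 100 genes were higher and 67 lower by at least 4-fold. Ranges of the 2 groups did not overlap for 2023 genes that were higher at 1 mM K (33.3%) and 1903 that were lower (31.4%). Many genes named below were picked by small p, so ranges that stay apart follow in part from that choice and are no added support. The split of calls depended on scaling. Higher genes made up 52.4% of the calls under TMM and 50.3% under DESeq2 size factors, but 66.4% with upper quartiles, 70.7% with library totals and 77.1% when libraries were scaled by the WBGene rows, and the middle log2 fold change over all genes was 0.03, 0.00, 0.18, 0.24 and 0.30 under those scalings in turn. Changes below are relative to the TMM zero. Of the 226 genes named here that were called, 8 lost the call with upper quartiles, 10 with library totals and 19 with WBGene scaling. The genes lost with WBGene scaling were CAT8, CMP2, DBP3, ECM22, ENA2, NHX1, PHO85, PIS1, PPZ2, PTK2, RAV1, RNR3, SIS2, SPE1, STE2, TEF2, TSR3, VHS3 and VNX1. A fit of all 12 libraries, in which 1 library at 0.5% glucose widened the shared spread, gave 1719 calls at 2% glucose, and 46 of the 226 lost theirs. A value that follows a gene or a verb without another unit is the log2 fold change, 1 mM over 7 mM K (0 is no change, 1 is 2-fold higher), with its standard error where given, and group values are means ± SD over 3 libraries; every gene said to rise or fall passed the adjusted p of 0.05 in edgeR's test.

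**Figure D1:**
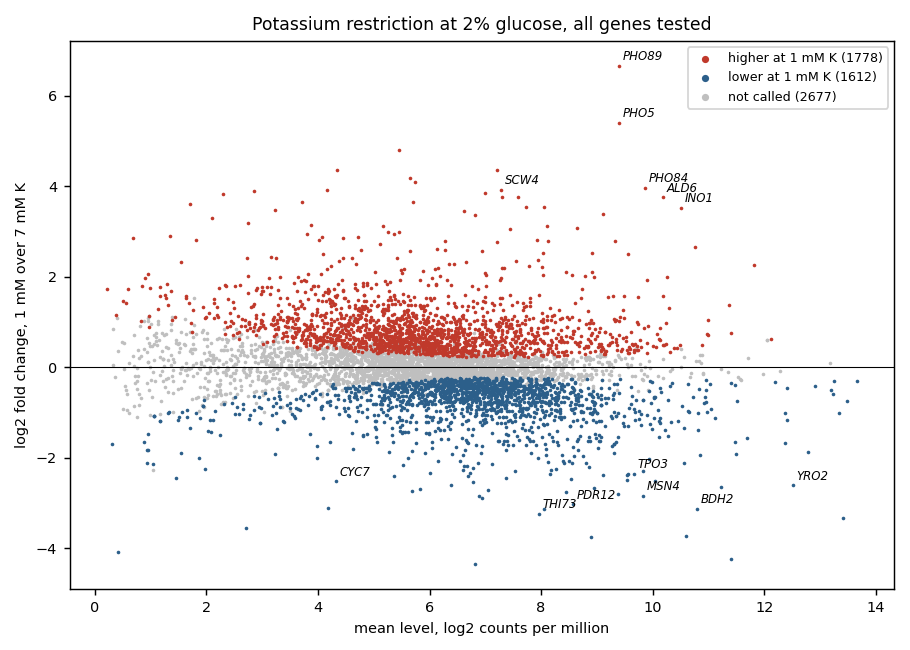
Each point is 1 of the 6067 genes tested, with its mean level over the 2 groups (log2 CPM) on the x axis and its log2 fold change, 1 mM over 7 mM K, on the y axis; red points were called higher (1778), blue points lower (1612) and grey points were not called. Called genes lie on both sides at all levels, and the phosphate transporter PHO89 has the highest log2 fold change at 6.66.

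Genes of phosphate uptake led the response. Yeast senses phosphate through the Pho80-Pho85 kinase and its inhibitor Pho81, which control the factor Pho4; Pho4 binds CACGTG, and with lower affinity CACGTT, upstream of transporter and phosphatase genes. The stretches below show such letters (in capitals, 12 bases either side) within the 500 bases before the coding start of 4 genes that were among the most raised, read from the R64 genome on the gene's own strand. CACGTG, a palindrome, occurred in 66.7% of the 6 phosphate transporter promoters, 42.9% of the 7 phosphatase promoters and 47.8% of the 23 phosphate signalling promoters, against 6.2% of all 5987 promoters of that length. Promoters of called-up genes held it in 6.1% of cases and those of called-down genes in 7.1%. The sulfur list, with 8 genes up and 16 down, had it in 66.7% of 33 promoters. Among the transporters, GIT1 and PHO90, which rose, lacked CACGTG, and PHO91, which was not called, carried it. CACGTT was searched on either strand. The match is a description of the letters, and other factors such as Cbf1 read CACGTG as well.
PHO89, chrII:798828-798857, minus strand: atgacaatgcagCACGTGggagacaaatag
PHO84, chrXIII:26197-26248, minus strand: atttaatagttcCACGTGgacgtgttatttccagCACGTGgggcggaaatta
PHO5, chrII:431187-431325, minus strand: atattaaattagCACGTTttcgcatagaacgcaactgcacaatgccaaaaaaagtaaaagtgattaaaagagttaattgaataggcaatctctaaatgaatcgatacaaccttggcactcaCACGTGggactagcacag
SPL2, chrVIII:375114-375259, minus strand: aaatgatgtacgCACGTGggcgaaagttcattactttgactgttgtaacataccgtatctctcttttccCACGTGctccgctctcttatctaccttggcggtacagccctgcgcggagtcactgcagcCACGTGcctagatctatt

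Of the 6 transporters, 5 rose and none fell, with a median log2 fold change of 2.60 (0.03 over all genes); without the third 1 mM K library 5 rose and 1 fell, with a median of 2.26. PHO89, which imports phosphate with sodium, had 1429, 1410.0 and 1189.5 CPM at 1 mM K, against 11.6, 16.4 and 11.4 CPM at 7 mM K. PHO84, the high-affinity importer that runs on protons, had 1152, 1289 and 2824 CPM at 1 mM K, against 108, 116 and 111 CPM at 7 mM K, with a log2 fold change of 3.97 ± 0.32 and an adjusted p of 8.42e-06 from edgeR. All 3 libraries at 1 mM K were far above all 3 at 7 mM K for both genes, and the third 1 mM K library held the highest PHO84 level but the lowest PHO89 level of its group. GIT1, which imports glycerophosphoinositol and glycerophosphocholine as sources of phosphate, had 209.6, 252 and 388 CPM at 1 mM K, against 12.6, 15.4 and 13.6 CPM at 7 mM K. The low-affinity importers moved less, with PHO90 at 68.2 ± 11.8 CPM at 1 mM K, against 29.0 ± 4.38 CPM at 7 mM K (SD, n = 3 each) and PHO87 at 158 ± 13.1 CPM at 1 mM K, against 123 ± 2.01 CPM at 7 mM K. The vacuolar exporter PHO91 was not called, at 93.5 ± 26.5 CPM at 1 mM K, against 122 ± 3.75 CPM at 7 mM K, and was the gene called lower without the third 1 mM K library.

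Of the 7 phosphatase genes 5 rose and 2 fell. The secreted acid phosphatase PHO5 rose by a log2 fold change of 5.40 ± 0.15, with 1127, 1302 and 1516 CPM at 1 mM K, against 29.9, 34.7 and 28.5 CPM at 7 mM K. PHO12 and PHO11 are nearly identical copies whose reads cannot be told apart with certainty, and their log2 fold changes were 1.57 and 0.94. PHO3, a thiamine-repressed acid phosphatase next to PHO5, rose by 2.41 ± 0.28, and the vacuolar alkaline phosphatase PHO8 by 0.28 ± 0.098. DIA3, which overlaps another annotated gene, fell (14.5 against 41.3 CPM at 1 mM against 7 mM K), as did PHO13 (77.8 against 138 CPM), a phosphatase of metabolic side products.

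Among 23 genes of phosphate signalling and polyphosphate, 11 rose and 4 fell. The vacuolar complex that makes polyphosphate rose in 4 of its 5 genes: VTC1 had 165, 179.8 and 199 CPM at 1 mM K, against 67.3, 66.5 and 63.8 CPM at 7 mM K, and the log2 fold changes of VTC3, VTC4 and VTC2 were 1.40, 1.36 and 0.34, while VTC5 was not called (0.32). No library overlapped between the groups for VTC1. SPL2, an inhibitor of low-affinity phosphate uptake, had 36.1, 25.4 and 55.1 CPM at 1 mM K, against 2.32, 1.05 and 2.29 CPM at 7 mM K. PHO81, the kinase inhibitor, rose by 0.61 ± 0.10, and PHO86, which helps Pho84 leave the endoplasmic reticulum, by 0.73 ± 0.094. PHM6 was at 2.37, 2.86 and 12.8 CPM at 1 mM K, against 0.664, 0.598 and 0.164 CPM at 7 mM K, so its 7 mM K levels rest on a handful of counts. The regulators PHO4, PHO2 and PHO80 were not called, with log2 fold changes of -0.27, 0.01 and -0.31, and PHO85, the kinase, was slightly lower (-0.25). PHM8, which frees phosphate from nucleotides and lysophosphatidic acid, was lower, with 379.9, 337 and 310.3 CPM at 1 mM K, against 1052, 910.0 and 1023 CPM at 7 mM K.

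Of 22 tested genes of potassium, sodium and proton transport, 5 rose and 11 fell (7 fell without the first or without the third 7 mM K library). The median log2 fold change of the list was -0.31, and -0.16, -0.11 and -0.05 under upper-quartile, library-total and WBGene scaling, where 6, 5 and 4 genes fell. The importers TRK1 (163 against 147 CPM at 1 mM against 7 mM K) and TRK2 (72.3 against 81.8 CPM) and the outward channel TOK1 (104 against 108 CPM) were not called. The call on the importers was close: TRK1 was called higher under upper-quartile, library-total and WBGene scaling, and without the third 1 mM K library TRK1 was called higher and TRK2 lower. PMA1, the main proton pump, had 3037, 3154 and 3908 CPM at 1 mM K, against 8403, 6445 and 7666 CPM at 7 mM K, a log2 fold change of -1.16 ± 0.14. PMA2, its minor and similar copy, went the other way, with 744, 687 and 686 CPM at 1 mM K, against 150.4, 196 and 174 CPM at 7 mM K. The groups did not overlap for either pump. Of the regulators that keep Trk and Pma1 active, the kinase genes HAL5 (-0.78) and PTK2 (-0.32) fell and SAT4 (HAL4) was not called (-0.31). The phosphatases that restrain Trk fell as well, with PPZ1 at -0.90 and PPZ2 at -0.34, and so did their inhibitors SIS2 (-0.44) and VHS3 (-0.41). The antiporter NHA1 fell (-0.97 ± 0.12), the endosomal exchanger NHX1 (-0.54 ± 0.097) and the vacuolar exchanger VNX1 (-0.55 ± 0.12). The sodium pumps ENA1, ENA2 and ENA5 rose, with log2 fold changes of 0.97, 1.86 and 0.60, but they are near-identical neighbours and their counts may be shared among them; ENA2 was not called without the third 1 mM K library.

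**Figure D2:**
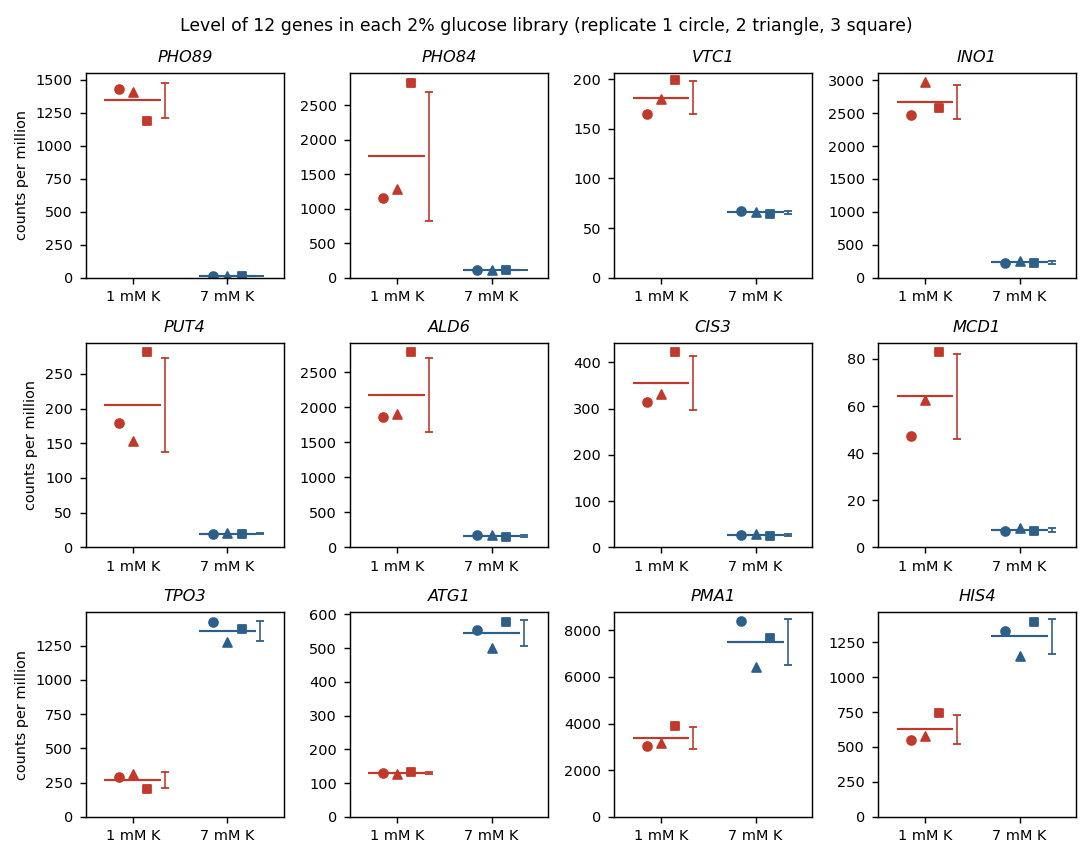
Level in CPM (y axis, from 0) of 12 genes in each of the 6 libraries, with the 1 mM K libraries in red on the left and the 7 mM K libraries in blue on the right of each panel; symbols mark the replicate number, horizontal lines the group mean and bars 1 SD. The 12 genes were among the called genes with the smallest p in their lists. That choice favours groups that stay apart, and none overlap in these panels. Over all genes tested, 33.3% had the 1 mM K group apart above the 7 mM K group and 31.4% apart below it. The third 1 mM K library (square) stands well above its partners for PHO84, PUT4, ALD6 and MCD1.

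Nitrogen genes moved both ways. Of 14 genes of ammonium use and amino acid export, 7 rose and 3 fell. GDH1, which fixes ammonium on 2-oxoglutarate to make glutamate, had 746, 859 and 747 CPM at 1 mM K, against 173, 207 and 165 CPM at 7 mM K, and GLN1, glutamine synthetase, rose by 0.51 ± 0.10. GLT1, which makes glutamate from glutamine, fell to 327 ± 26.1 CPM at 1 mM K, against 801 ± 40.8 CPM at 7 mM K (SD, n = 3 each). The ammonium importer MEP1 rose by 1.12 ± 0.15, whereas MEP2 (-0.29) and MEP3 (-0.16) were not called. The acetate and ammonium transporter family members ADY2, ATO2 and ATO3 rose by 1.89, 1.42 and 1.04. QDR2, a plasma membrane exporter linked to potassium uptake, rose by 1.94 ± 0.14, and the amino acid exporter AQR1 fell (-0.84 ± 0.22). Among 20 amino acid permease genes 9 rose and 7 fell. Under upper-quartile, library-total and WBGene scaling 10, 11 and 9 rose and 5, 2 and 2 fell. PUT4, the proline permease, had 179, 153 and 282 CPM at 1 mM K, against 19.3, 20.9 and 19.1 CPM at 7 mM K, and all 1 mM K libraries were above all 7 mM K libraries. TAT1, for valine, leucine and aromatic residues, had 259 ± 57.4 CPM at 1 mM K, against 37.8 ± 7.45 CPM at 7 mM K, DIP5, for acidic residues, rose by 1.54 ± 0.11, and the general permease GAP1 by 1.93 ± 0.20. BAP3, for branched-chain residues, fell (-1.18 ± 0.12), and STP1, the factor that switches on permease genes when amino acids are outside, fell as well (-0.73 ± 0.087).

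Polyamines are small organic cations, and 8 of their 16 genes rose while 6 fell. The exporters fell: TPO3 had 288, 311 and 201 CPM at 1 mM K, against 1424, 1275 and 1370.3 CPM at 7 mM K, its close relative TPO2 had 217 ± 59.5 CPM at 1 mM K, against 2877 ± 222 CPM at 7 mM K (SD, n = 3 each), and TPO1 and TPO5 had log2 fold changes of -1.37 and -0.96. TPO4 went against them at 1.42. Genes of spermidine synthesis rose, with SPE2 (S-adenosylmethionine decarboxylase) at 1.12 and SPE3 (spermidine synthase) at 0.95, but SPE1, ornithine decarboxylase, was lower at -0.28 and SPE4 was not called (-0.31). Import genes DUR3, AGP2 and SAM3 rose by 0.76, 0.71 and 0.53.

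Genes that make amino acids were mostly lower at 1 mM K. The counts were 0 up and 4 down of 7 for histidine, 2 and 9 of 15 for arginine, 1 and 5 of 9 for lysine, 1 and 8 of 12 for branched-chain and 1 and 11 of 16 for aromatic amino acids, with list medians of -0.50, -0.76, -0.43, -0.56 and -0.54 against 0.03 over all genes. The 4 histidine genes that fell include HIS3 (-2.18), which is partly deleted in this strain. All 5 medians stayed below 0 under the other 4 scalings. Many of these genes are activated by Gcn4, the factor of the general amino acid control, which binds TGACTCA. That motif occurred in the 500 bases upstream of 57.1% of the histidine genes and 66.7% each of the arginine and branched-chain genes. It was less frequent in the other lists, in 2 of 9 lysine and 4 of 16 aromatic promoters. The motif stood in 4.0% of all promoters, 7.0% of the promoters of called-down genes and 3.3% of those of called-up genes. ARO1 and ILV3, which fell, carried it, but ARO3, LYS20 and HIS3, which also fell, lacked it. CAR1, which rose, carried it. The motif was counted on either strand. The stretches around it upstream of 3 genes that fell are shown with the motif in capitals.
HIS4, chrIII:68514-68544, minus strand: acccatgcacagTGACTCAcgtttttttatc
ARG7, chrXIII:396513-396543, minus strand: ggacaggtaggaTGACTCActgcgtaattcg
LEU4, chrXIV:426837-426867, minus strand: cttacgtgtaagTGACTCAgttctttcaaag

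HIS4, a histidine synthesis enzyme of several steps, had 550.4, 581 and 745 CPM at 1 mM K, against 1330.4, 1153 and 1396 CPM at 7 mM K. ARG7, which passes acetyl groups in arginine synthesis, fell to 266 ± 29.8 CPM at 1 mM K, against 737 ± 18.9 CPM at 7 mM K, and LEU4, the first enzyme of leucine synthesis, to 1404 ± 173 CPM at 1 mM K, against 3052 ± 200.3 CPM at 7 mM K (SD, n = 3 each). All 3 genes had every 1 mM K library below every 7 mM K library. ARO3, an entry enzyme of the aromatic pathway, fell (-1.69 ± 0.11), ARO1 (-1.26 ± 0.11), LYS20, homocitrate synthase (-1.73 ± 0.13), and ILV3 of branched-chain synthesis (-1.18 ± 0.11). The exceptions were partly on the breakdown side: arginase CAR1 rose by 1.59 ± 0.11 and CAR2 by 0.34 ± 0.12. BAT2, a transaminase, rose by 0.56 ± 0.093, and so did the synthesis genes LYS9 (1.02) and ARO7 (1.68). In the sulfur list 8 of 33 rose and 16 fell, with 5 rising without the first or without the third 7 mM K library. Under upper-quartile, library-total and WBGene scaling 12, 12 and 11 rose and 12, 11 and 10 fell. The median of this list, -0.35, became -0.20, -0.14 and -0.08 under those scalings. The sulfate importer SUL2 fell to 113 ± 19.0 CPM at 1 mM K, against 628 ± 8.83 CPM at 7 mM K, and STR3, cystathionine beta-lyase, fell (-1.58 ± 0.12). SAH1, which clears S-adenosylhomocysteine, had 493 ± 99.0 CPM at 1 mM K, against 56.9 ± 6.40 CPM at 7 mM K, the S-adenosylmethionine synthetase SAM2 rose by 2.05 ± 0.13 and the methionine permease MUP1 by 2.25 ± 0.18. Purine synthesis rose in 12 of 19 genes and fell in 1 (14 and 3 without the third 1 mM K library), with a median of 0.84. ADE1, GUA1 and ADE13 rose by 1.54, 1.45 and 1.27, and the gene that fell was BAS1, the factor that switches on this pathway, with 27.7, 36.2 and 36.4 CPM at 1 mM K, against 97.3, 84.9 and 97.0 CPM at 7 mM K.

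Heat shock chaperone genes were lower at 1 mM K. Of 31 heat shock chaperone genes 27 fell and 1 rose, with a median of -0.79 and the same 27 and 1 counts without the third 1 mM K library. The heat shock factor Hsf1 binds the heat shock element, repeats of GAA in alternating orientation, searched here as 3 such repeats on either strand. The element occurred in 45.2% of these promoters, against 1.5% of all promoters and 2.1% of those of called-down genes. It stood in 0.0% of the 61 promoters of genes lower by at least 4-fold. SSA4, SSE2 and SSA3, which fell, lacked it. The stretch before HSP78, a mitochondrial disaggregase, holds 2 overlapping matches.
HSP78, chrIV:974461-974502, minus strand: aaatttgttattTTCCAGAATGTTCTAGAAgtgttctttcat

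HSP78 had 775, 876 and 632 CPM at 1 mM K, against 2922, 2832 and 3014 CPM at 7 mM K, and SSA3, a cytosolic Hsp70 gene, had 1257, 1325 and 1047 CPM at 1 mM K, against 4635, 4351 and 4774 CPM at 7 mM K. Every 1 mM K library was below every 7 mM K library for both. SSE2, an exchange factor of Hsp70, fell (-2.64 ± 0.15). SBA1, the Hsp90 co-chaperone p23, rose by 0.63 ± 0.11. In the HSP30 family of membrane proteins, YRO2 fell to 1658 ± 144 CPM at 1 mM K, against 10062 ± 64.3 CPM at 7 mM K (SD, n = 3 each) and HSP30 (-3.32 ± 0.44), and MRH1 rose by 0.57 ± 0.16. HSP30 had 2314, 2894 and 719 CPM at 1 mM K, against 19837, 20265 and 19242 CPM at 7 mM K, so the third 1 mM K library held far less than its partners. Of 33 general stress genes 17 fell and 2 rose (18 and 5 without the third 1 mM K library, and 10 and 5 under WBGene scaling). MSN4, which codes for a stress transcription factor, had 239.8, 278 and 151 CPM at 1 mM K, against 1675, 1397 and 1685 CPM at 7 mM K, and YGP1, a secreted glycoprotein of starved cells, fell (-1.56 ± 0.12). The energy-metabolism regulator RGI1 and the desiccation gene SIP18 rose, by 1.04 and 0.61. The letters AGGGG that Msn2 and Msn4 read, on either strand, occurred in 84.8% of the promoters of that list, 42.4% of those of called-down genes, 28.8% of those of called-up genes and 34.1% of all promoters. In trehalose and glycogen metabolism 5 of 21 rose and 9 fell, with a median of -0.23 that turned to 0.04 under WBGene scaling. The vacuolar trehalase ATH1 fell (-1.77 ± 0.099), NTH2 (-1.47 ± 0.10), the glycogen primer GLG1 (-1.63 ± 0.12) and the phosphatase subunit GAC1, which activates glycogen synthase (-2.02 ± 0.13); PGM1 and UGP1, which make UDP-glucose, rose by 1.39 and 0.80.

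Among 38 autophagy genes 25 fell and 2 rose, with a median of -0.53. ATG1, the kinase that starts autophagy, had 131, 126 and 132 CPM at 1 mM K, against 555, 501 and 577 CPM at 7 mM K, with no overlap. ATG41, ATG32 (the mitophagy receptor) and ATG4 fell (-1.83, -0.97 and -0.91). The 2 that rose were the vacuolar protease gene PEP4 (0.44) and the aminopeptidase gene LAP3 (0.99). Of the 34 proteasome genes 2 rose (5.9%) and none fell, against 29.3% and 26.6% of all genes. Those counts moved with the libraries and the scaling. Without the third 1 mM K library 8 rose, without the second 4 fell, and 7, 10 and 8 rose under upper-quartile, library-total and WBGene scaling, where the median of -0.05 became 0.10, 0.16 and 0.22.

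Cell cycle genes were mostly higher. The factor pairs Swi4-Swi6 (SBF) and Mbp1-Swi6 (MBF) switch on G1/S genes through the letters CNCGAAA and ACGCGT. The second of these, a palindrome, occurred in 61.7% of 47 DNA replication promoters, 5.4% of all promoters, 7.6% of those of called-up genes and 4.2% of those of called-down genes. CNCGAAA, on either strand, occurred in 55.0% of 20 G1/S promoters, 22.0% of all promoters, 26.4% of those of called-up genes and 19.8% of those of called-down genes. Stretches with these letters in capitals, on the gene's strand (TTTCGNG is CNCGAAA on the other strand), are shown for 3 genes among those with the smallest p in their lists.
PCL1, chrXIV:87558-87650, plus strand: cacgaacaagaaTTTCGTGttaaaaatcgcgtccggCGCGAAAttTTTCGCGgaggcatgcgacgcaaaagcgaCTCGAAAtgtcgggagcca
CLN1, chrXIII:662180-662227, plus strand: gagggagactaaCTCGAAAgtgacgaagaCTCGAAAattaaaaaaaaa
MCD1, chrIV:444299-444408, plus strand: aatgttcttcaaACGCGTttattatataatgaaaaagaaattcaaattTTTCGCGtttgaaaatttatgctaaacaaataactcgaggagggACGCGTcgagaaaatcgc

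Of the 20 G1/S genes 11 rose and none fell, with a median of 0.90; without the third 1 mM K library 9 rose and 2 fell, with a median of 0.32, so the size of this list's change rested on that library. CLN2, a G1 cyclin, had 92.0, 111 and 133 CPM at 1 mM K, against 27.1, 26.9 and 20.8 CPM at 7 mM K, and TOS4, a G1/S chromatin protein, had 34.4, 38.8 and 41.8 CPM at 1 mM K, against 4.48, 6.87 and 4.42 CPM at 7 mM K. Both genes were highest in the third 1 mM K library and did not overlap between groups. CLN1 and PCL1, a G1 cyclin and a cyclin of Pho85, rose by 3.46 ± 0.20 and 4.80 ± 0.32. In DNA replication and cohesion 29 of 47 rose and 2 fell (28 and 5 without that library). MCD1, the cleavable cohesin subunit, had 47.0, 62.6 and 83.0 CPM at 1 mM K, against 6.81, 8.22 and 6.87 CPM at 7 mM K. CDC21, thymidylate synthase, rose by 1.79 ± 0.15 and RNR4, of ribonucleotide reductase, by 1.12 ± 0.095; RNR3, the copy induced by DNA damage, fell (-0.58 ± 0.13), as did TAH11, which loads the replicative helicase (-0.80 ± 0.084). Of 10 histone genes 6 rose and none fell. HHF2 (H4) had 323, 329 and 282 CPM at 1 mM K, against 59.4, 66.1 and 58.7 CPM at 7 mM K, HTB2 (H2B) rose by 1.81, HTA2 (H2A) had 82.3 ± 6.93 CPM at 1 mM K, against 33.4 ± 2.41 CPM at 7 mM K, and the linker histone HHO1 rose by 1.21, the variant HTZ1 by 1.25 and HHT2 (H3) by 0.34. The other copies HTA1, HTB1, HHF1 and HHT1 were not called, at 0.20, 0.22, 0.22 and 0.12; all 10 passed without the third 1 mM K library. Copies of 1 histone are alike in coding sequence, and how reads were shared between them was not tested.

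Of 40 mitosis and cytokinesis genes 25 rose and 7 fell. CLB1, a mitotic cyclin, had 82.7, 78.2 and 141 CPM at 1 mM K, against 7.14, 5.83 and 4.74 CPM at 7 mM K. STU2, a microtubule polymerase, rose by 1.93 ± 0.13 and KIN3, a mitotic kinase, by 2.07 ± 0.18. FKH2 and MCM1, which code for the factors that switch on CLB2-cluster genes, fell (-1.63 ± 0.13 and -1.02 ± 0.11). The forkhead letters GTAAACA, on either strand, occurred in 20 of 40 promoters of this list. They stood in 10.3% of all promoters, 13.1% of those of called-up genes and 9.0% of those of called-down genes. CLB1, STU2 and KIN3, which rose, lacked these letters, and FKH2, which fell, carried them. Daughter cell separation rose in 12 of 15 genes and fell in 1, with or without the third 1 mM K library, and with a median of 1.55. EGT2, a wall protein of daughter cells, had 284, 331 and 316 CPM at 1 mM K, against 36.7, 41.1 and 34.8 CPM at 7 mM K, the chitinase CTS1 had 786, 913 and 768 CPM at 1 mM K, against 135, 159 and 131 CPM at 7 mM K, and SCW11 and DSE1 rose by 2.60 and 2.57. No library overlapped between groups for EGT2 or CTS1. RME1, a regulator that represses meiosis, was the gene that fell (-0.91 ± 0.11).

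The cell wall list split, with 15 genes up and 13 down of 34, 11 up and 6 down by at least 2-fold. The glucanase-like gene SCW4 had 251, 276 and 351 CPM at 1 mM K, against 16.9, 22.1 and 18.5 CPM at 7 mM K, and its relative SCW10 rose by 3.55 ± 0.12. CIS3, which is linked to wall glucan, had 314, 331 and 423 CPM at 1 mM K, against 25.4, 28.5 and 24.5 CPM at 7 mM K, and CCW12, an abundant wall mannoprotein, had 3009 ± 139 CPM at 1 mM K, against 476 ± 49.4 CPM at 7 mM K. Every 1 mM K library was above every 7 mM K library for SCW4 and CIS3. PIR3 of the same family as CIS3 fell (-1.68 ± 0.094), as did SLT2, the kinase of the cell wall integrity pathway (-1.62 ± 0.11).

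**Figure D3:**
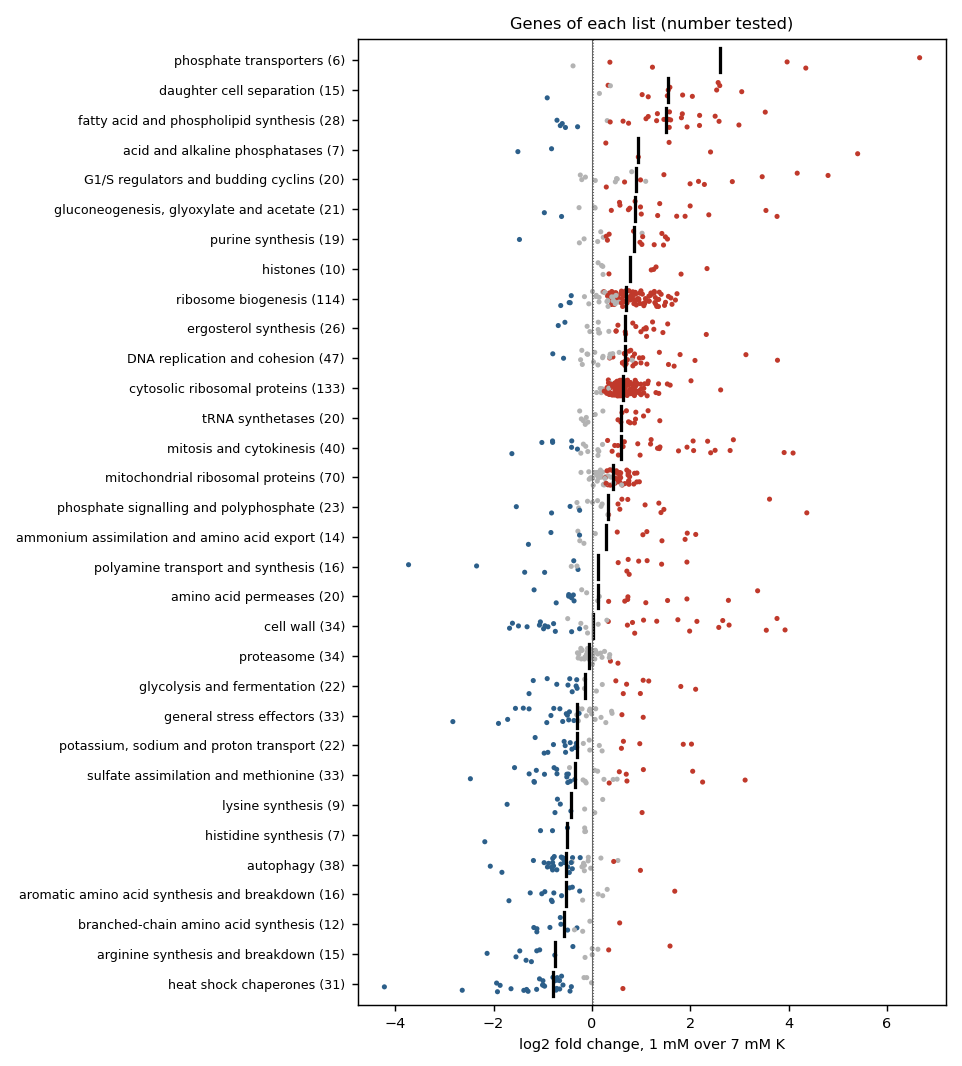
Log2 fold change, 1 mM over 7 mM K (x axis), of each tested gene in 32 of the 54 gene lists, with the number tested in brackets; red points were called higher, blue points lower, grey points were not called, black bars are list medians and the dotted line is the median of all genes at 0.03. Phosphate transporters have the highest median at 2.60 and heat shock chaperones the lowest of the lists shown at -0.79.

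Genes of protein synthesis were higher by small amounts. Of 133 cytosolic ribosomal protein genes 127 rose and none fell, with a median of 0.62, and 126 rose without the third 1 mM K library; 14 rose by at least 2-fold. RPL30 had 373, 329 and 364 CPM at 1 mM K, against 166, 178 and 164 CPM at 7 mM K, and RPL9A and RPL11A rose by 1.35 and 1.00; many of these genes come in pairs of similar copies. Ribosome biogenesis rose in 86 of 114 genes and fell in 4 (81 and 6 without the third 1 mM K library), and its median was 0.69 with that library and 0.48 without it. BRX1, an assembly factor of the large subunit, had 59.4, 61.1 and 88.7 CPM at 1 mM K, against 22.7, 22.6 and 22.4 CPM at 7 mM K, with the third 1 mM K library well above its partners, and YTM1 and RRB1 rose by 1.37 and 1.07. TSR3 and DBP3 fell (-0.42 ± 0.11 and -0.46 ± 0.14). Of 24 RNA polymerase I and III genes 15 rose and 3 fell (9 and 2 without the first or without the second 7 mM K library), with RPA49 at 1.70. Of 20 tRNA synthetase genes 12 rose and none fell (12 and 4 without the third 1 mM K library), led by FRS1 (1.38) and GRS1 (1.14). Of 70 mitochondrial ribosomal protein genes 39 rose and none fell, and 25 rose without the third 7 mM K library. Among translation factors 23 of 38 rose and 6 fell: the initiation factors TIF1 and CDC33 rose by 1.10 and 0.97, while TEF2, elongation factor 1A, which has an identical protein copy in TEF1, and HEF3, a minor copy of elongation factor 3, fell (-0.59 ± 0.095 and -0.80 ± 0.085). All of these list medians stayed above 0 under the other 4 scalings. The counts depended on which libraries shared the fit. In the fit of all 12 libraries, where 13.2% of genes rose, 14 of 133 cytosolic ribosomal protein genes rose (10.5%), 12 of 114 for ribosome biogenesis, 10 of 70 for mitochondrial ribosomal proteins, 6 of 38 translation factors, 4 of 20 tRNA synthetases and 3 of 24 polymerase genes. The medians of the first 3 lists there were 0.59, 0.65 and 0.40. With the second 0.5% glucose, 7 mM K library taken out of that fit, where 26.9% of genes rose, the 6 counts in the same order were 118, 82, 38, 19, 12 and 13.

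Membrane lipid genes rose together. Of 28 genes of fatty acid and phospholipid synthesis 22 rose and 5 fell, 19 of the 22 by at least 2-fold, with a median of 1.51. INO1, which makes inositol, had 2465, 2969 and 2578 CPM at 1 mM K, against 225, 255 and 217 CPM at 7 mM K. The inositol importer ITR1 had 1169, 1312 and 1369 CPM at 1 mM K, against 228, 239 and 211 CPM at 7 mM K. No library overlapped between groups for INO1 or ITR1. CHO1, phosphatidylserine synthase, rose by 2.19 ± 0.098, the fatty acid synthase gene FAS1 by 1.93 ± 0.11 and the desaturase OLE1 by 1.57 ± 0.15. ITR2, the minor inositol importer, and PIS1, which joins inositol to lipid, fell (-0.71 ± 0.095 and -0.65 ± 0.10). Ergosterol synthesis rose in 17 of 26 genes and fell in 2. ERG6 had 150.1, 159.6 and 195 CPM at 1 mM K, against 30.9, 34.8 and 35.0 CPM at 7 mM K, and ERG3, ERG26 and ERG4 rose by 1.54, 1.26 and 1.23; the genes that fell were HMG2, a reductase of the early pathway, at -0.69 and ECM22, a sterol-sensing factor, at -0.55.

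In carbon metabolism, 16 of 21 genes of gluconeogenesis, the glyoxylate cycle and acetate use rose and 2 fell, with a median of 0.88. ALD6, the cytosolic acetaldehyde dehydrogenase that makes acetate, had 1853, 1896 and 2787 CPM at 1 mM K, against 172, 168 and 141 CPM at 7 mM K. ADH2, which oxidises ethanol, had 414, 572 and 483 CPM at 1 mM K, against 45.5, 42.0 and 38.9 CPM at 7 mM K, and FBP1, fructose bisphosphatase, had 415 ± 34.7 CPM at 1 mM K, against 80.0 ± 11.8 CPM at 7 mM K (SD, n = 3 each). All 3 genes were higher in every 1 mM K library than in every 7 mM K library. JEN1, the lactate and pyruvate importer, rose by 2.00 ± 0.12. The factors that activate this group, CAT8 and SIP4, were the genes that fell (-0.62 ± 0.13 and -0.97 ± 0.11). In glycolysis and fermentation 8 of 22 rose and 10 fell (6 without the first or without the third 7 mM K library): both phosphofructokinase genes fell, PFK1 (-1.19 ± 0.11) and PFK2 (-1.28 ± 0.098), while ENO2 (enolase) and the minor pyruvate decarboxylase PDC6 rose by 1.04 and 2.11. The sign of that list's median, -0.15, turned under upper-quartile, library-total and WBGene scaling (0.00, 0.06 and 0.12). In the citric acid cycle 7 of 21 rose and 9 fell (5 without the third 7 mM K library), with ACO1 and KGD1 down (-0.73 ± 0.10 and -0.73 ± 0.11) and LSC1 up by 1.07 ± 0.098. Under upper-quartile, library-total and WBGene scaling 8, 9 and 8 of these genes rose and 4, 4 and 3 fell. The median of the list, -0.04, became 0.12, 0.17 and 0.23 under those scalings. In the respiratory chain 12 of 40 rose and 5 fell (19 and 8 without the third 1 mM K library, and 6 or 7 rising without any 1 of the 7 mM K libraries). The 2 cytochrome c genes moved apart, CYC1 having 47.4, 52.3 and 52.6 CPM at 1 mM K, against 15.6, 19.1 and 16.4 CPM at 7 mM K and CYC7 7.23, 3.54 and 7.00 CPM at 1 mM K, against 37.4, 27.9 and 36.5 CPM at 7 mM K. Of 24 hexose transporter and sensor genes 3 rose and 9 fell (5 and 10 without the third 1 mM K library). Under upper-quartile, library-total and WBGene scaling 4, 5 and 5 of these rose and 6, 6 and 4 fell. The median of the list, -0.25, became -0.09, -0.04 and 0.02. HXT6 rose by 2.27 ± 0.30 while its near-identical neighbour HXT7 was not called (0.12), so the share of reads between them is uncertain. HXT4 fell (-1.71 ± 0.23), the repressor MIG2 (-1.25 ± 0.11) and MTH1, which restrains HXT genes (-0.91 ± 0.11). In glycerol metabolism STL1, the glycerol importer, had 339, 370.4 and 638 CPM at 1 mM K, against 76.2, 78.9 and 80.1 CPM at 7 mM K, GUT1, glycerol kinase, rose by 1.25 ± 0.14, and the dihydroxyacetone kinase gene DAK2 and the glycerol phosphatase gene GPP2 fell (-2.73 ± 0.26 and -1.35 ± 0.11); 6 of 20 rose and 9 fell, with a median of -0.16 that turned above 0 under library-total and WBGene scaling.

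Of the metal and signalling lists, iron uptake (13 of 28) and nutrient signalling (17 of 34) fell in a larger share of their genes than the 26.6% of all genes, though under WBGene scaling more genes of each list rose than fell. Iron uptake rose in 4 genes. FIT3, a wall mannoprotein that holds siderophores, had 48.0, 39.6 and 43.5 CPM at 1 mM K, against 271, 170.2 and 128 CPM at 7 mM K, and MRS4, a mitochondrial iron importer, rose by 0.79 ± 0.15. Under WBGene scaling 6 of the 28 fell and 9 rose. Of 13 zinc genes 4 fell and 2 rose (7 and 2 without the third 1 mM K library), with the importer ZRT2 at -0.99. In calcium signalling 3 of 17 rose and 5 fell (5 and 5 without the third 1 mM K library, 2 and 3 without the first 7 mM K library); VCX1, the vacuolar calcium exchanger, had 189, 189.8 and 208 CPM at 1 mM K, against 641, 552 and 617 CPM at 7 mM K, the calcineurin subunit CMP2 and its factor CRZ1 fell (-0.61 ± 0.093 and -0.68 ± 0.14), and the vacuolar channel YVC1 rose by 1.06 ± 0.18. Of 21 vacuolar proton pump genes 6 rose and 4 fell (12 and 4 without the third 1 mM K library, and 1 to 4 rising without any 1 of the other 5), the assembly genes RAV1 and RAV2 falling (-0.46 ± 0.10 and -0.74 ± 0.16). In the antioxidant list 9 of 32 rose and 10 fell, with thioredoxin reductase TRR1 up by 1.27 ± 0.085 and the peroxiredoxin AHP1 down (-1.36 ± 0.093). Under upper-quartile, library-total and WBGene scaling 12, 15 and 13 of that list rose and 7, 6 and 4 fell. Of 29 genes of peroxisomes and fatty acid oxidation 6 rose and 11 fell, with 3 rising without the second 7 mM K library. In nutrient signalling 5 of 34 rose and 17 fell (10 and 7 under WBGene scaling). PDE1, a cyclic AMP phosphodiesterase, had 315, 292 and 298 CPM at 1 mM K, against 993, 928 and 988 CPM at 7 mM K, REG1, a partner of the phosphatase Glc7 in glucose repression, fell (-1.01 ± 0.11) and the ribosome regulator SFP1 (-0.75 ± 0.093), whereas RAS2 and SIR2 rose by 0.77 and 1.40. The medians of the iron, zinc, calcium, peroxisome and nutrient signalling lists lay between -0.27 and -0.08, and each turned above 0 under WBGene scaling. Under upper-quartile scaling the iron, calcium and peroxisome medians were above 0 as well (0.002, 0.03 and 0.07). The same 3 medians were 0.06, 0.09 and 0.13 under library-total scaling, while those of the zinc and nutrient signalling lists stayed below 0 under both.

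Mating and meiosis genes did not move as 1 group. The alpha factor gene MF(ALPHA)1 had 383, 416 and 485 CPM at 1 mM K, against 70.2, 60.7 and 51.8 CPM at 7 mM K, and STE3, the receptor for a-factor, rose by 1.37 ± 0.12, while the alpha agglutinin SAG1 and AGA1 fell (-0.81 ± 0.098 and -1.65 ± 0.12); 5 of 21 genes of that list rose and 7 fell (3 to 5 and 4 to 8 with 1 library left out). Of the a-specific genes tested STE6 and STE2 fell (-0.87 and -0.79), and BAR1 was not called (-0.03). AXL1, which was put in the same list but is not specific to a cells, fell as well (-1.11). In meiosis and sporulation 7 of 35 rose and 10 fell, with SPS100 at -1.39, HOP1 at -1.36 and SPS4 at 5.52, 6.40 and 15.8 CPM at 1 mM K, against 0.498, 0.448 and 0.981 CPM at 7 mM K.

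The rule on the largest changes took called genes that averaged 10 CPM or more and whose group ranges stayed apart. By that rule, 5 of the 10 most raised genes were phosphate genes (PHO89, PHO5, SPL2, GIT1 and PHO84). The others were PCL1, HO, CLB1, SCW4 and CLB2. The 10 most lowered genes were TDA6, SSA4, IRT1, TPO2, HSP30, THI73, YDR222W, BDH2, PDR12 and 1 unannotated row. BDH2, a gene like butanediol dehydrogenase, had 434, 426 and 243 CPM at 1 mM K, against 3540.3, 2869 and 3178 CPM at 7 mM K. PDR12, which pumps weak organic acids out of the cell, had 75.7, 72.9 and 103 CPM at 1 mM K, against 718, 646 and 677 CPM at 7 mM K, and THI73, a permease-like membrane protein, had 39.8, 49.3 and 54.0 CPM at 1 mM K, against 431, 489 and 426 CPM at 7 mM K. Ranges that stayed apart were a condition of this pick, so they lend these 3 genes no added support.

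At 0.5% glucose the same change of potassium was measured in 6 other libraries, so the 2 contrasts share no sample. For this comparison both contrasts were read from 1 fit of all 12 libraries, in which fewer genes passed at 2% glucose than in the fit of 6. At 0.5% glucose 1441 of 6127 genes rose (23.5%) and 1525 fell (24.9%). Among the 6065 genes tested in both fits, 801 rose (13.2%) and 914 fell (15.1%) at 2% glucose. Of the 801, 382 also rose at 0.5% glucose, which is 47.7% of them and 26.8% of the 1425 compared genes that rose at 0.5% glucose, and 108 fell (13.5%). Of the 914, 356 also fell (38.9%, and 23.5% of the 1514 at 0.5% glucose) and 135 rose (14.8%). The difference between the 2 potassium effects was itself called in 1835 of 6127 genes (29.9%). One library, the second at 0.5% glucose and 7 mM K, stood apart from its partners, and without it many more genes passed. The difference was then called in 2927 of 6164 genes (47.5%), and at 2% glucose 1632 genes rose (26.9%) and 1465 fell (24.1%). Of these, 779 also rose (47.7%, and 43.4% of the 1796 that rose at 0.5% glucose) and 550 also fell (37.5%, and 31.8% of 1727).

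Some lists moved the other way. In the fit of 12 libraries 1 of the 31 chaperone genes rose and 18 fell at 2% glucose, while 18 rose and none fell at 0.5% glucose, and the difference was called for 27. Without the library that stood apart the counts were 1 and 23 at 2% glucose and 20 and 0 at 0.5% glucose, with 28 differences. In gluconeogenesis, the glyoxylate cycle and acetate use 7 of 21 rose and 1 fell at 2% glucose, against 1 and 15 at 0.5% glucose, with 16 differences called (14 and 2, 2 and 14, and 17 without that library). For branched-chain amino acid synthesis none rose and 5 of 12 fell at 2% glucose, and 5 rose and 2 fell at 0.5% glucose, with 9 differences called (1 and 8, 6 and 2, and 10 without that library). Phosphate transporters rose in 4 of 6 cases at 2% glucose and in 1 at 0.5% glucose, with 4 differences called (5, 2 and 6 without that library), whereas the phosphatases rose in 4 of 7 at 2% and 5 at 0.5% glucose, with 3 differences called, the same counts as without that library. Ribosomal protein genes rose in 14 of 133 cases at 2% glucose and in 112 at 0.5% glucose, with 7 differences called; without that library 118 rose at 2% glucose and 122 at 0.5% glucose, with 34 differences called. Lipid synthesis genes rose in 19 of 28 cases at 2% and 21 at 0.5% glucose, with 10 differences called (22, 21 and 13 without that library).

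**Figure D4:**
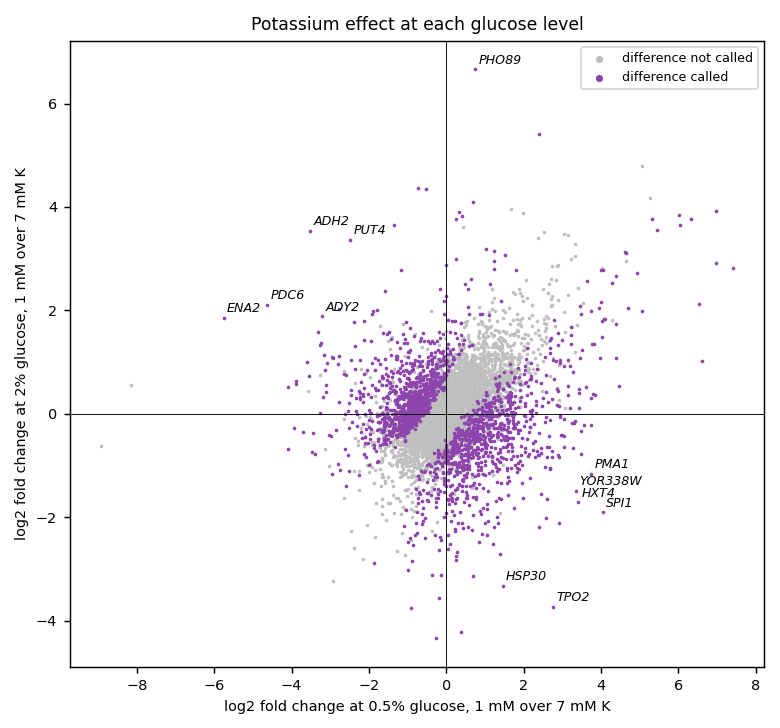
Log2 fold change, 1 mM over 7 mM K, at 2% glucose from the fit of 6 libraries (y axis) against the same at 0.5% glucose from the fit of 12 (x axis), 1 point a gene; purple points had a difference between the 2 effects called by edgeR, grey points did not. The 12 genes named are the 6 with the highest and the 6 with the lowest differences among genes called in both tests, and PHO89 stands at 6.66 on the y axis.

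Single genes at the ends of that comparison differed by large amounts. PHO89 had 447, 513 and 871 CPM at 1 mM K, against 678, 54.6 and 357 CPM at 7 mM K in 0.5% glucose, an effect of 0.75 on the log2 scale and a difference of 5.89 ± 0.94 (edgeR adjusted p = 8.52e-04); without the second 7 mM K library the log2 fold change was 0.25 and the difference 6.40. PMA1, which fell at 2% glucose, had 1713, 1780.1 and 1284 CPM at 1 mM K, against 161, 94.7 and 99.8 CPM at 7 mM K in 0.5% glucose, an effect of 3.75 on the log2 scale and a difference of -4.94 ± 0.40 (edgeR adjusted p = 1.56e-05). ADH2 had 637, 727 and 1610.5 CPM at 1 mM K, against 2183, 30994 and 724 CPM at 7 mM K in 0.5% glucose, an effect of -3.51 on the log2 scale and a difference of 7.02 (edgeR adjusted p = 0.00475). Most of that effect stood in the second 7 mM K library, and without it the effect was -0.54 and the difference 4.06. PUT4 rose at 2% glucose (3.37) and had a log2 fold change of -2.48 at 0.5% glucose, with a difference of 5.81 ± 0.54 (edgeR adjusted p = 3.16e-05).

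**Figure D5:**
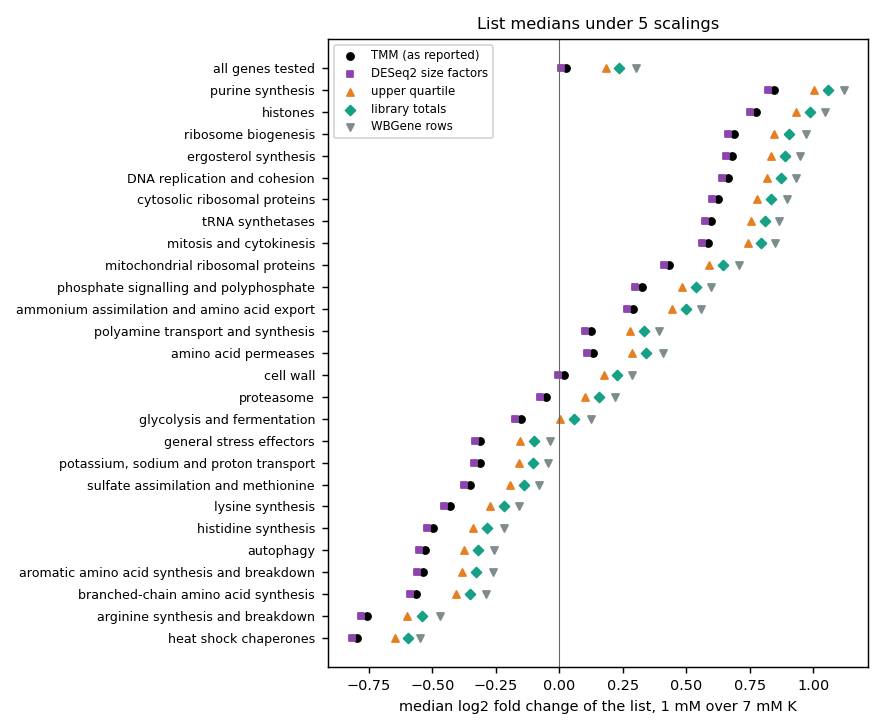
Median log2 fold change, 1 mM over 7 mM K (x axis), of all genes and of 26 gene lists under 5 ways of scaling the libraries, 1 symbol a scaling. The median of all genes runs over the scalings between 0.00 and 0.30, list medians shift with it, and lists near 0 change sign.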

How the data were processed

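RNA-seq of BY4742 cultures was deposited as 1 table for 12 libraries. Per the labels' protocols, total RNA was read in paired ends and mapped with STAR 2.7.1a to R64; the submitters' processing notes also name RSEM 1.3.3. The deposited values are taken as estimated counts per gene made by the authors; all were whole numbers, so no rounding was needed. Whether counting used strand is not stated, so reads of overlapping or antisense genes cannot be told apart, and near-identical copies may share reads.

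Of 7127 rows with SGD identifiers, 6444 (90.4%) matched the R64 annotation; WBGene rows were dropped. The 6 libraries at 2% glucose, with 6581782 to 7036345 counts each, were fitted with edgeR 4.0.16 (R 4.3.3): TMM factors, filterByExpr, quasi-likelihood test, Benjamini-Hochberg adjustment over all 6067 genes. The 6-library fit was preferred to the 12-library fit because 1 library at 0.5% glucose stood apart and raised the shared spread (biological coefficient of variation 0.1252 against 0.2405). The difference between potassium effects at the 2 glucose levels was an interaction contrast on 12 libraries, and counts at the 2 levels were set side by side within that fit. P-values measure the spread among replicates that the labels call biological. Data were simulated for this comparison with 200 genes changed, 50 at each fold, and 6054 genes run. There 58% of genes changed 1.5-fold, 92% changed 2-fold, 100% changed 4-fold and 80% changed 0.5-fold were recovered, and 8.33% of 180 calls were false. In the real data 3390 genes were called, far more than were changed in the simulation. Those rates therefore do not carry over to the calls reported here.

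The gene lists (54) and the comparison were chosen with earlier results of these data known. Genes named were drawn from picks made by rule, and some picks, such as KHA1, GDE1 and GDH2, are not named in the text. The picks were the 10 highest and 10 lowest of the called genes averaging 10 CPM or more whose group ranges stayed apart, and up to 4 called list members with the smallest p and up to 2 against the list's direction. They also took in all members of the small transport, phosphate, polyamine, ammonium and histone lists, and the 6 highest and 6 lowest differences between glucose levels. OLE1, MUP1 and a few partners of named genes were added after their values were seen. List counts have no test. Promoter windows were read from the R64 genome, 500 bases before the annotated coding start. Alternatives were other scalings, DESeq2 1.42.0, limma voom 3.58.1, other filters and libraries, and each library left out.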

Additional observations from a re-analysis of the deposited data

Results flagged for a closer look

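The potassium effect at 2% glucose and that at 0.5% glucose differed for 1835 genes in edgeR's test of the difference (adjusted p under 0.05), and for 2927 without the second 0.5% glucose, 7 mM K library. For the 6 genes with the lowest differences, the log2 effect at 2% minus that at 0.5% glucose was -6.51 for TPO2 (-6.35 without that library), -5.97 for SPI1 (-6.83), -5.13 for HXT4 (-5.72), -4.94 for PMA1 (-4.79), -4.85 for YOR338W (-4.89) and -4.79 for HSP30 (-4.32). All 6 fell at 2% glucose. For the 6 genes with the highest differences it was 5.09 for ADY2 (2.61 without that library), 5.81 for PUT4 (5.36), 5.89 for PHO89 (6.40), 6.71 for PDC6 (7.16), 7.02 for ADH2 (4.06) and 7.58 for ENA2 (7.70). All 6 rose at 2% glucose, and the counts of ENA2 may be shared with its near-identical neighbours.

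Rows outside the yeast gene set, with WBGene identifiers, held up to 40.7% of the counts in the 6 libraries. They were not analysed here beyond their use as an alternative scaling.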

How the results depend on the processing

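The count of genes called at 2% glucose was 3390 and stayed within 1.5 times that under all but 2 alternatives: 1719 with all 12 libraries in the fit, where 1 library at 0.5% glucose widened the shared spread, and 1103 in a test against a fold of 1.5. The other fits gave 3020 to 3497 calls, and leaving out each library gave 2704 to 3852. No gene called in both the reported fit and an alternative changed direction. The share of calls that were higher at 1 mM K was 52.4%, 50.3% with DESeq2 size factors, 50.6% with DESeq2's Wald test, 66.4% with upper-quartile scaling, 70.7% with library totals, 77.1% with WBGene scaling, 46.7% with 12 libraries and 55.4% against a fold of 1.5, and 50.9% to 53.1% with 1 library left out. The difference between glucose levels was called for 1835 genes, 1362 to 2927 with 1 library left out, the highest without the second 0.5% glucose, 7 mM K library. Same-numbered replicates of the groups did not deviate together (correlations of 0.096, -0.069 and -0.02), so numbers were not taken as pairs; a replicate block gave 3279 calls at 2% glucose and 1534 for the difference. Among the genes named in the text, PHO85 alone was called in 1 direction and had the other sign elsewhere, at 0.02 under WBGene scaling. The calls of CAR2, DBP3, ENA2, HAL5, HHT2, MRH1, PHO8, PHO85, PTK2, SIP18, SIS2 and SPE1 were each lost with at least 1 library left out, and those of DBP3, PHO85, PPZ2, PTK2, RAV1, SIS2, SPE1, TSR3 and VHS3 were lost under both WBGene scaling and library totals. WBGene scaling alone of these 2 lost CAT8, CMP2, ECM22, ENA2, NHX1, PIS1, RNR3, STE2, TEF2 and VNX1, and library totals alone HAL5. With all 12 libraries in the fit 46 of 226 calls were lost: ACO1, ADY2, ATO3, BAP3, BAT2, BRX1, CAR2, CAT8, DBP3, DUR3, ECM22, ENA5, ENO2, GLN1, GRS1, GUT1, HAL5, HEF3, HHT2, LAP3, MRH1, OLE1, PEP4, PHO8, PHO85, PHO87, PIS1, PPZ2, PTK2, RPA49, RPL11A, RPL30, RRB1, SAM3, SIP18, SIS2, SPE1, TAH11, TEF1, TEF2, TIF1, TPO4, UGP1, VHS3, VNX1 and VTC2. Without the library that stood apart 8 were lost in that fit: CAR2, PHO8, PHO85, PPZ2, SIP18, SIS2, TAH11 and VHS3. With 3 libraries a group and 4 residual degrees of freedom, small changes and genes with few counts, such as PHM6, are measured poorly.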
